A study of Mus musculus with 47 samples.

Results

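The 15 induced pluripotent stem cells (iPSCs) with the most Nanog and the 15 with the least were compared across all other genes, out of 47 single cells on 1 plate. Cells were ranked by their Nanog counts on both alleles divided by all allelic counts of the cell, ties were ordered by well name, and the 17 cells between the groups were kept as a reference. The groups are called Nanog-high and Nanog-low, and the Nanog values describe them. Members were thus chosen by measured Nanog counts. The sample labels name a single kind of cell and no separate cultures, so single cells could not stand for replicates and no test was made of any difference given here.

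The study followed the X chromosomes during reprogramming of female mouse cells, and its iPSCs were profiled at allele resolution. Per the description of the study, the mouse embryonic fibroblasts behind its iPSCs came from crosses of Mus females carrying an X-linked GFP transgene with Cast males, and they were reprogrammed with lentiviral Oct4, Sox2, Klf4 and c-Myc under doxycycline. Both groups carry the same labels, which name mouse ESC medium with LIF and ascorbic acid, whereas the methods describe iPSC controls as picked colonies passaged without doxycycline and ascorbic acid, so the use of ascorbic acid in these cells is uncertain. Each cell was sorted into a GpC methylase mix before its polyadenylated RNA was captured by the G&T-seq procedure, and only reads that cover a SNP between the strains were counted. The column names of the table put each cell in an X class, which is X-Mus X-Cast (both X chromosomes), X-Cast O-Mus (the Cast X alone), or X-Mus O-Cast (the Mus X alone). The labels name neither a line nor a passage of these cells.

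Nanog is a homeodomain transcription factor of the pluripotent state, and in mouse stem cells grown with serum and LIF its level is known to vary from cell to cell. It binds with Oct4 and Sox2 at many enhancers of pluripotency genes. Cells low in Nanog are known to be more prone to leave the naive state, which LIF signalling helps to maintain. Naive factors, primed factors of the later epiblast, lineage markers and metabolic genes were therefore read beside it.

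Nanog lies on the forward strand of chromosome 6 at chr6:122707489-122714633 (GRCm38), and its promoter carries neighbouring letters of the octamer motif bound by Oct4, searched here as 7 of its letters, and of the Sox motif. In the RefSeq window chr6:122707315-122707614 (GRCm38.p6, forward strand, 250 bases before to 50 after a start site), shown because Nanog defines the groups, capitals mark TTTGCAT, the octamer letters searched, followed after 1 base by ACAATG, the Sox motif, the first capital lying at position -151 from the start. Zfp42, which encodes the naive marker Rex1, has the same 7 letters as well, at position -185 of chr8:43306960-43307259 (reverse strand), again in capitals.

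Nanog: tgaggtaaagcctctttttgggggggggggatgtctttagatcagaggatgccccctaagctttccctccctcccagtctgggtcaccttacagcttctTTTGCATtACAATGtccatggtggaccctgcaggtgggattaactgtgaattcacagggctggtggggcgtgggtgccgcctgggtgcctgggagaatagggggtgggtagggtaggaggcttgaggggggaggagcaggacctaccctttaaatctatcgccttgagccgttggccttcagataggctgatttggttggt
Zfp42: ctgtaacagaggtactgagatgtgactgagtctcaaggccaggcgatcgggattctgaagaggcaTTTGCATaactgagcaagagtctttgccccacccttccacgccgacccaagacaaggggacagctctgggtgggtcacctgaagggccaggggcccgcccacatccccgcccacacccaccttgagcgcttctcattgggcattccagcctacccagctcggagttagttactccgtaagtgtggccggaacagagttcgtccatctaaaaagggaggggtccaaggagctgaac

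TTTGCAT or its reverse complement ATGCAAA occurs in 4.63% of 32851 promoter windows of this length, ACAATG or CATTGT in 12.6%, and both in 0.813%. A match of letters is a description of the window and not a mapped binding site.

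Nanog spread widely over the 47 cells without a gap between the groups. In units of counts per 10000 allelic counts of the cell, Nanog-high cells had from 2.53 to 7.96 with a median of 3.89, cells between the groups from 1.49 to 2.52 with a median of 2.01, and Nanog-low cells from 0 to 1.30 with a median of 0.801. The last cell inside the high group had 2.53 and the first outside it 2.52, while the limit of the low group lay between 1.30 and 1.49. Nanog reads were found in 15 of 15 Nanog-high and 14 of 15 Nanog-low cells. Summed over cells, the high group held 1047 Nanog counts (exact Poisson 95% interval 984.5 to 1112) and the low group 164 (139.9 to 191.1), which is 59.3% and 9.29% of all Nanog counts on the plate. The intervals cover counting error only, and they are too narrow where 1 read covers several SNPs or was copied by PCR, since the libraries have no molecular identifiers.

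**Figure D1:**
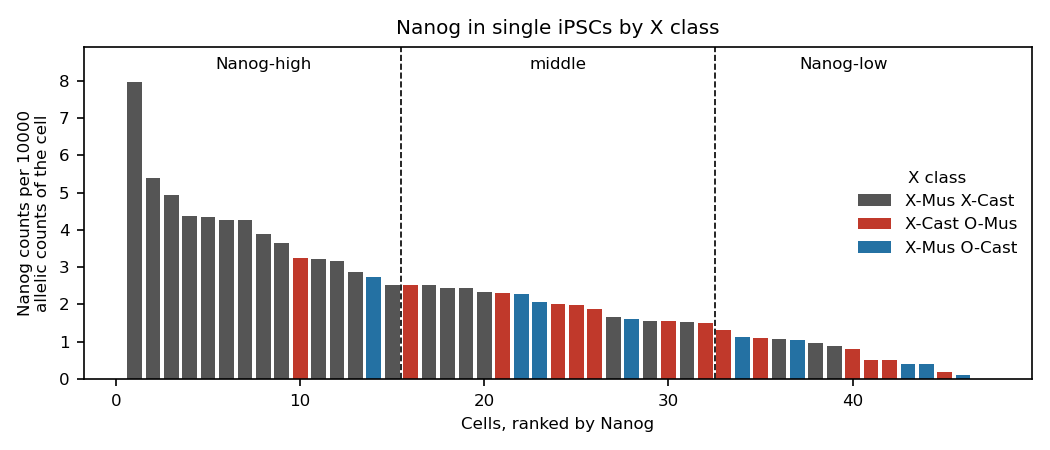
Nanog counts per 10000 allelic counts (vertical axis) in the 47 cells by rank (horizontal axis), 1 bar per cell, coloured by X class, with dashed lines at the limits of the groups. The highest cell stood at 7.96, and 13 of the 15 Nanog-high cells were X-Mus X-Cast.

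Both alleles of Nanog took part in the ranking, and cells rich in one allele were on the whole richer in the other. The log2 fold of the group means was 2.56 for Cast counts and 2.52 for Mus counts. As cells were ranked by the sum of both, these folds follow from the ranking and only describe it. Over all 47 cells the counts of the alleles per 10000 had a Pearson r of 0.59 and a Spearman rho of 0.53, over the 23 X-Mus X-Cast cells 0.61 and 0.64, and over the 24 cells with a single X only 0.12 and 0.22, as descriptions of cells that share a plate and the cell total as denominator. When cells were ranked by Cast counts alone, the Mus counts, which that ranking did not use, had a median of 1.91 (0.545 to 4.70) in the 15 highest and 0.599 (0 to 2.11) in the 15 lowest. When they were ranked by Mus counts, the Cast counts had medians of 1.30 (0.148 to 3.34) and 0.356 (0 to 1.45). In either direction the ranges of the unused allele overlapped between the 15 highest and the 15 lowest.

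**Figure D2:**
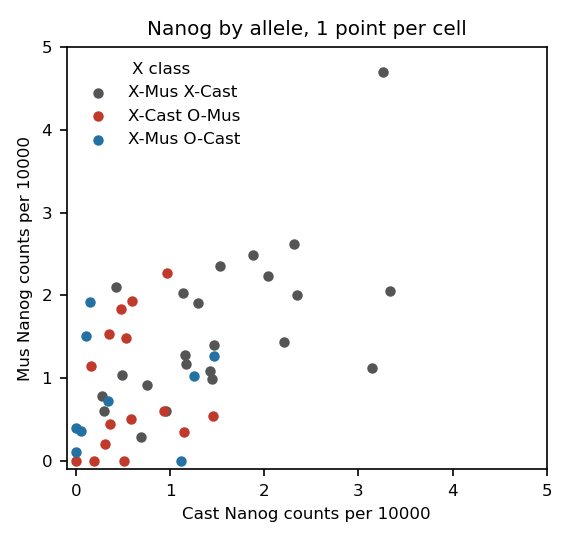
Cast (horizontal axis) and Mus (vertical axis) Nanog counts per 10000 allelic counts, 1 point per cell, coloured by X class. The X-Mus X-Cast cells had a Spearman rho of 0.64 between the alleles and the cells with a single X 0.22.

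The groups differed in X class more than in depth. Both X chromosomes were present in 13 of 15 Nanog-high cells (86.7%, exact binomial 95% interval 59.5 to 98.3) and in 3 of 15 Nanog-low cells (20.0%, 4.33 to 48.1), with 7 of 17 in between. These intervals take cells as independent draws and cover counting error only, not the spread between cultures. The other Nanog-low cells had the Cast X alone in 7 cases and the Mus X alone in 5. Median Nanog was 2.87 per 10000 with both X chromosomes (0.898 to 7.96), 1.49 with the Cast X alone (0 to 3.23) and 1.12 with the Mus X alone (0.111 to 2.73). X class and Nanog cannot be told apart in the comparison of the groups, so folds are followed by a class-matched fold where X class may matter, chosen after seeing the data, of the highest over the lowest cells within each class, 7 each with both X chromosomes, 5 each with the Cast X alone and 3 each with the Mus X alone. The class-matched groups share 9 high and 11 low cells with the groups themselves, so the comparisons are not independent of each other. Matching also narrowed the contrast in Nanog, which ran from 2.00 to 7.96 per 10000 in the class-matched high and from 0 to 2.34 in the class-matched low cells, so that their Nanog ranges overlapped. A smaller class-matched fold therefore cannot be assigned to X class alone.

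Allelic counts per cell had a median of 167849 (130816 to 216451) in Nanog-high and 175131 (71682 to 196630) in Nanog-low cells. Genes with a read had medians of 5135 and 4771, and after thinning every cell to 71682 counts, with no cell left out, medians of 4790 (4242 to 5311) and 4481 (2918 to 5185). The mitochondrial share of counts had medians of 22.9% and 19.6%, and cells of both groups came from all 8 plate rows and all 6 plate columns used. In 4 cells, 3 in between and 1 Nanog-low, Cast made up 52.3% to 56.0% of chromosome 1 counts, against at least 65.1% in all the others. The part of depth, of gene number and of these 4 cells in the results was not tested, and values without those 4 cells are given with the other settings in the closing section.

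Of 13947 genes, 3840 had a mean of at least 5 counts and a read in at least 24 cells and were compared. Genes with a mean at least 2-fold higher in Nanog-high cells numbered 192 (5.00%), and 226 (5.89%) were at least 2-fold lower. Any higher mean was seen in 46.9% of the genes compared and any lower mean in 53.1%, and the median log2 fold was -0.04. The class-matched comparison had 159 genes (4.14%) at least 2-fold higher and 152 (3.96%) at least 2-fold lower, with 47.6% higher and 52.4% lower by any fold. Counts of list members past 2-fold below are to be read against these percentages.

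Naive pluripotency genes lay on both sides, with the largest folds on the side of Nanog. Of 30 listed genes 27 were in the table and 24 were compared, of which 14 were higher and 10 lower in Nanog-high cells, 6 at least 2-fold higher and 3 at least 2-fold lower. The median log2 fold of the list was 0.32, and 0.40 class-matched. The 6 were Pecam1, Prdm14, Fbxo15, Tbx3, Tcl1 and Lifr, and the 3 were Sox15, Nr0b1 and Nr5a2.

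Pecam1, an adhesion molecule used as a surface marker of naive cells, had a median of 1.19 per 10000 in Nanog-high cells (0 to 4.59), 0.626 in between and 0 in Nanog-low cells (0 to 1.17), a log2 fold of 2.50 and 1.90 class-matched. No Nanog-low cell exceeded the Nanog-high median, although the ranges overlapped at the bottom, and the 2 Nanog-high cells with a single X were at 0 and 0.094, with a log2 fold of -2.73 over the 12 single-X Nanog-low cells. Prdm14, a regulator that represses de novo methylation genes and FGF signalling, had medians of 1.09 (0 to 4.86) and 0 (0 to 3.15), a log2 fold of 1.80 and 1.72 class-matched, but only 7.81% of its counts were Mus, and its log2 fold on Mus counts was -0.33 and among single-X cells -1.01. Prdm14 reads were found in 7 of 15 Nanog-low cells, and 2 of them exceeded the Nanog-high median.

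Tcl1, a cofactor of Akt signalling, had a median of 8.28 per 10000 in Nanog-high cells (0 to 18.3), 4.42 in between and 1.96 in Nanog-low cells (0 to 11.8), a log2 fold of 1.28, 0.75 class-matched and -0.56 among single-X cells. It stood above the Nanog-low median in 13 of 15 Nanog-high cells. Fbxo15, an F-box protein and an early reporter gene of reprogramming, had medians of 2.22 (0.601 to 8.06), 1.89 and 0.698 (0 to 2.72), a log2 fold of 1.66 and 1.05 class-matched. The Fbxo15 ranges overlapped, with 1 Nanog-low cell above the Nanog-high median, and its rho with Nanog was 0.47 within X-Mus X-Cast and 0.55 within single-X cells. Tbx3, a T-box factor of the LIF response, had a log2 fold of 1.39 and 0.47 class-matched, and Lifr, a subunit of the LIF receptor, 1.25 and 1.33, with a median of 0 in both groups, and among X-Mus X-Cast cells (13 over 3) they were at -0.25 and -1.13.

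Several other naive factors differed less between the groups. Tfcp2l1, a factor downstream of LIF and Stat3, had medians of 15.1 (3.41 to 27.1) and 7.30 (0.419 to 19.7) and a log2 fold of 0.75, which was 0.16 class-matched. Zfp42, whose promoter window is printed above, had medians of 18.3 (2.04 to 28.8) and 12.7 (0 to 27.8), a log2 fold of 0.63 and 0.29 class-matched. Esrrb, an orphan nuclear receptor and known Nanog target, was at -0.08 and 0.50 class-matched, and Tet1, a 5-methylcytosine dioxygenase, at -0.23 and -0.19. Dppa3 and Dppa4, genes of the germ line and early embryo, had log2 folds of -0.38 and -0.58, and of -0.40 and -0.35 class-matched. The fold of Dppa3 was unstable, from -1.78 with 10 cells per group to a highest value of 1.62, and above 0 in 2 of 17 settings.

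Nr0b1, the X-linked gene of the nuclear receptor Dax1, was lower in Nanog-high cells. It had a median of 1.97 per 10000 in Nanog-high cells (0 to 9.67), 7.65 in between and 7.03 in Nanog-low cells (0 to 17.4), a log2 fold of -1.41 and -1.10 class-matched. Only 1 Nanog-high cell exceeded the Nanog-low median, while the cells in between resembled the Nanog-low cells. Sox15, a Sox family factor, had medians of 0 (0 to 1.07) and 0.730 (0 to 2.93) and a log2 fold of -1.60, which was -0.40 class-matched. Nr5a2, an orphan nuclear receptor, had a log2 fold of -1.18 and 0.19 class-matched, and 1 cell gave 64.3% of the Nr5a2 counts of its group.

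**Figure D3:**
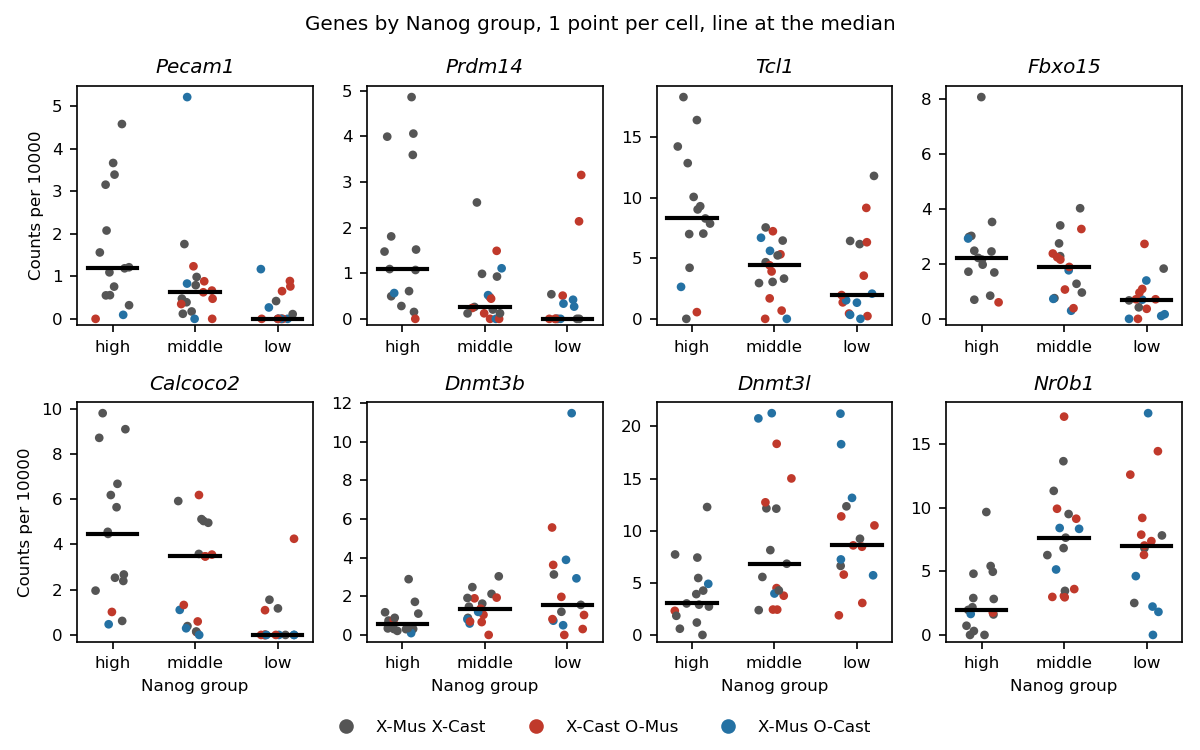
Counts per 10000 allelic counts (vertical axes) of 8 genes in Nanog-high, middle and Nanog-low cells (horizontal axes), 1 point per cell coloured by X class, with a line at the group median. Pecam1, Prdm14 and Calcoco2 had a median of 0 in Nanog-low cells, and Dnmt3b and Dnmt3l had their highest medians there.

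Dnmt3l and Dnmt3b, genes of de novo DNA methylation, and most of the few primed genes compared had lower means in Nanog-high cells. Dnmt3l, a catalytically inactive partner of the de novo methyltransferases, had a median of 3.02 per 10000 in Nanog-high cells (0 to 12.3), 6.83 in between and 8.59 in Nanog-low cells (1.88 to 21.2), a log2 fold of -1.25 and -0.58 class-matched. In 14 of 15 Nanog-low cells Dnmt3l lay above the Nanog-high median, and its rho with Nanog over 47 cells, -0.50, was among the 6 lowest of all genes. Dnmt3b, the main de novo methyltransferase of the epiblast, had medians of 0.547 (0.094 to 2.89), 1.36 and 1.56 (0 to 11.5), a log2 fold of -1.72 and -1.52 class-matched. The ranges overlapped, and 12 of 15 Nanog-low cells lay above the Nanog-high median. Of 6 methylation writers and erasers compared, 1 was higher and 5 lower, with 0 at least 2-fold higher and 2 at least 2-fold lower, a median of -0.37 and -0.30 class-matched. The maintenance methyltransferase Dnmt1 was at -0.23 and 0.32 class-matched, and its adaptor Uhrf1 at -0.52 and -0.42, whereas the dioxygenase Tet2 was at 0.63 and 0.58.

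Of 22 primed and formative genes 16 were in the table and 6 were compared, with 0 at least 2-fold higher and 4 at least 2-fold lower, a median log2 fold of -1.14 and -0.37 class-matched. The 4 were Dnmt3b, Pim2, Lef1 and Etv4, and 1 gene, Ncam1, was higher at 0.02. Pim2, a kinase gene on the X chromosome, had medians of 0.207 (0 to 1.36) and 0.718 (0 to 3.95), a log2 fold of -1.76 and -1.84 class-matched. For Lef1, a Wnt pathway factor, the log2 fold was -1.14 and -0.38 class-matched, and for Etv4, an Ets factor induced by FGF and MAPK signalling, -1.13 and -0.02. The key primed gene Fgf5 had 0 counts in both groups.

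Only 4 of 15 MAPK feedback and target genes in the table were compared, and all 4 were lower in Nanog-high cells, 2 at least 2-fold, with a median of -0.82 and -0.16 class-matched. Etv4 and Etv5 stand on both this list and the primed list. Dnmt3b likewise stands on the primed and the methylation list, and Dnmt3l on the core and the methylation list. The results of these lists are therefore not separate from each other. The receptor antagonist Il17rd was at -1.69 and -1.07 class-matched, though its median was 0.128 in Nanog-high and 0 in Nanog-low cells, so that few Nanog-low cells with up to 4.60 per 10000 carried the mean. The MAPK phosphatase Dusp6 was too sparse to be compared, with 8 counts in Nanog-high and 32 in Nanog-low cells.

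Dazl, an RNA-binding protein gene of the germ line whose promoter is known to be methylated in somatic cells, was among the 12 genes with the highest folds. Its medians were 2.75 per 10000 in Nanog-high (0 to 15.5), 0.298 in between and 0 in Nanog-low cells (0 to 3.71), with a log2 fold of 2.89 and 1.40 class-matched. Dazl reads were present in 10 of 15 Nanog-high and 7 of 15 Nanog-low cells, so the groups differed in level more than in the share of cells with a read. Its promoter window, chr17:50293571-50293870 (GRCm38.p6, reverse strand, RefSeq), is shown because of this, with each CG in capitals.

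Dazl: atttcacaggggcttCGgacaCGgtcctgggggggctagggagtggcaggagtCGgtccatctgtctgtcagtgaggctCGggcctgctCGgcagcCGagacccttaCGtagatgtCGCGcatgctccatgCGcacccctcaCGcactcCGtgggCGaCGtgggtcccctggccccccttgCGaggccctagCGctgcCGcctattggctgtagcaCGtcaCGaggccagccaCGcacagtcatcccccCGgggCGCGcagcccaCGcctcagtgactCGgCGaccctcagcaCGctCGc

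The window holds 28 CG, and 14.2% of all windows hold as many or more, while the Nanog window holds 4 and the Zfp42 window 11, against a median of 7 over all windows. Methylation of these promoters was not measured in the counts used here.

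Core pluripotency genes differed little between the groups. Of 16 compared, 6 were higher and 10 lower, 1 at least 2-fold in each direction, with a median log2 fold of -0.24 and -0.16 class-matched. Pou5f1, the gene of Oct4, had a median of 2.02 per 10000 in Nanog-high cells (1.43 to 3.13) and 2.01 in Nanog-low cells (1.23 to 3.46), a log2 fold of -0.10. Every cell of both groups had Pou5f1 reads, and the ranges of the groups all but coincided. Sox2 had medians of 1.33 (0.242 to 2.70) and 0.817 (0 to 2.27), a log2 fold of 0.50 and 0.25 class-matched. Nodal, a TGF-beta family ligand, had medians of 0.553 (0 to 2.10) and 0 (0 to 1.60), a log2 fold of 1.25, 0.54 class-matched and -2.16 among single-X cells. Klf4, with 0.34 and -0.70 class-matched, had few counts, and reads of the lentiviral factors could not be separated from those of the cell's own Pou5f1, Sox2 and Klf4.

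Some lineage factors were at or near 0 counts in both groups, while many other genes of the lists were read. In all cells, 0 counts were found for 2 of 16 primitive endoderm genes with a row, 6 of 12 of trophectoderm, 3 of 8 of mesoderm and 1 of 5 of neuroectoderm. Gata4, Gata6, Pdgfra, Cdx2 and Elf5, defining factors of primitive endoderm and trophectoderm, had 0 counts in both groups, and the mesoderm gene T had 2 counts in Nanog-high and 4 in Nanog-low cells. Of the mesoderm genes 0 had enough counts to be compared, of neuroectoderm 1, of trophectoderm 2 and of primitive endoderm 3. Tfap2c, a factor shared by trophectoderm, germ cells and naive cells, had medians of 0.980 (0 to 4.99) and 0 (0 to 3.87), a log2 fold of 1.62 and 0.80 class-matched, while Tead4, a factor of trophectoderm specification, was at -0.36 and 0.15. In primitive endoderm, the laminin genes Lamb1 and Lamc1 were at -1.19 and -0.53, class-matched 0.09 and -0.31, and the matrix gene Sparc went the other way at 0.35 and 0.83. Summed over the list, primitive endoderm genes had a median of 8.10 per 10000 in Nanog-high (5.05 to 16.4) and 9.66 in Nanog-low cells (1.45 to 14.9). Trophectoderm genes summed to medians of 1.79 (0.128 to 5.42) and 0.700 (0 to 3.87), and neuroectoderm genes to 0.601 (0 to 1.25) and 0.615 (0 to 4.60). Mesoderm genes together had 68 counts in Nanog-high and 55 in Nanog-low cells. Of 17 fibroblast genes with a row, 7 had 0 counts in all cells, among them Col1a2, Dcn and Postn, and 2 were compared. Summed over the list, fibroblast genes had a median of 5.39 per 10000 in Nanog-high (0.754 to 17.6) and 9.32 in Nanog-low cells (2.93 to 31.9), and their part in the other results was not tested. Vim, an intermediate filament gene, had a Nanog-high mean 0.499 times the Nanog-low mean and was level class-matched, and Fn1, the fibronectin gene, was at -0.75 and -0.31.

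Metabolic genes were close to level as groups, with a few single genes apart. Of 18 glycolysis genes compared, 12 were higher and 6 lower, with 0 at least 2-fold higher and 1 at least 2-fold lower, a median log2 fold of 0.09 and 0.23 class-matched. The gene at least 2-fold lower was Pdk1, the kinase that shuts pyruvate dehydrogenase, with medians of 1.59 per 10000 (0 to 8.81) and 3.89 (0.158 to 15.2), a log2 fold of -1.33 and -0.99 class-matched. Pdk1 exceeded the Nanog-low median in 3 of 15 Nanog-high cells. The glucose transporters went the other way, Slc2a1 at 0.96 and 0.70 class-matched, and Slc2a3, whose gene lies 0.0203 Mb from Nanog, with medians of 4.30 (1.42 to 8.94) and 2.28 (0.417 to 10.3), at 0.63 and 0.40. Hexokinase 2, the entry enzyme of glycolysis, was at -0.80 and -0.32, and the lactate dehydrogenase Ldha at -0.08 and 0.13.

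Of 20 genes of pyruvate dehydrogenase and the TCA cycle, 13 were higher and 7 lower, with 0 at least 2-fold higher, 1 at least 2-fold lower and a median of 0.05. The 1 gene was Ogdh, of the 2-oxoglutarate dehydrogenase complex, with medians of 0.171 (0 to 1.12) and 0.500 (0 to 3.29), a log2 fold of -1.24 and -1.77 class-matched. The highest fold of this list was that of Idh3g, a subunit of isocitrate dehydrogenase encoded on the X chromosome, at 0.69 and -0.10 class-matched. Of 57 nuclear genes of oxidative phosphorylation, 18 were higher and 39 lower, 0 past 2-fold in either direction, with a median of -0.16, and again the highest, Cox7b at 0.82 and 0.40 class-matched, is X-linked. The 9 mitochondrially encoded genes had a median of 0.05.

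In threonine, serine and one-carbon metabolism 0 of 13 genes passed 2-fold in either direction, with a median of 0.04, and Gldc, the glycine decarboxylase of the glycine cleavage system, was the lowest at -0.82. The 13 genes of the amino acid stress response had a median of 0.16 and 0.36 class-matched, led by the stress-induced gene Nupr1 at 0.79 and 1.42 class-matched. The 13 genes of cholesterol synthesis, 7 higher and 6 lower, had a median of 0.20.

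**Figure D4:**
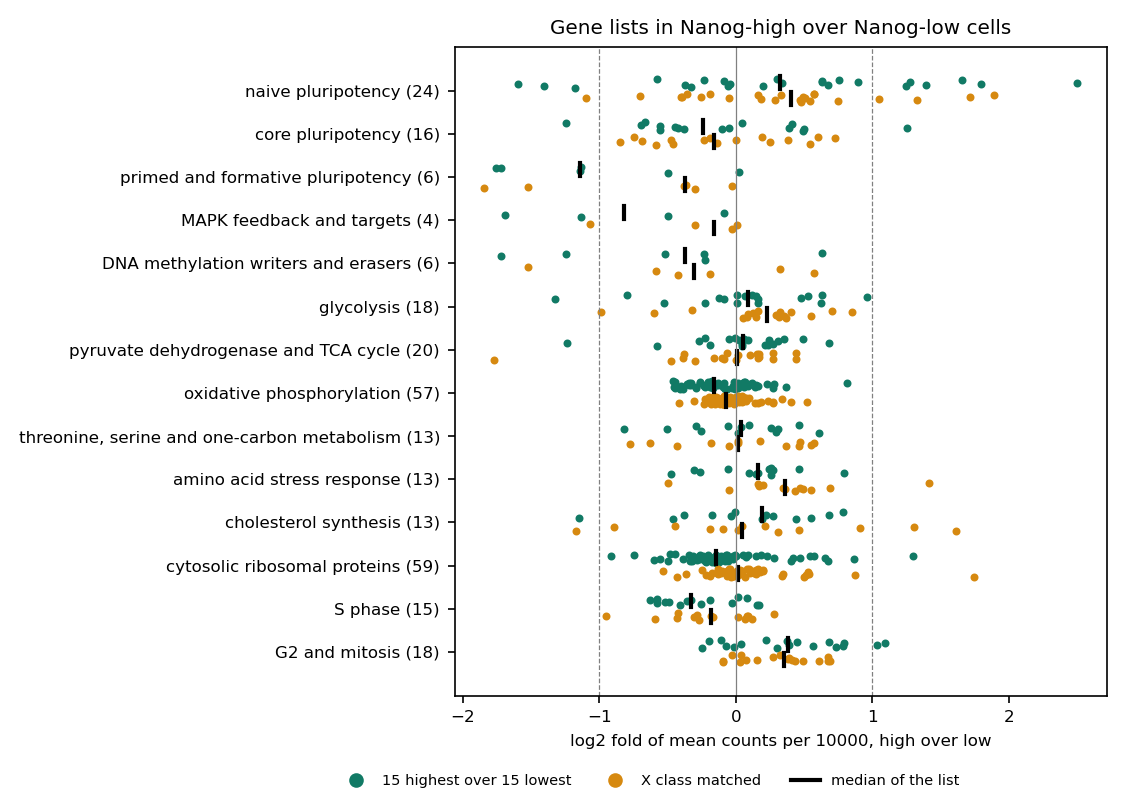
Log2 fold of mean counts per 10000, high over low (horizontal axis), of the compared members of 14 gene lists (vertical axis, number of genes in parentheses), 1 point per gene, for the 15 highest over the 15 lowest cells and for the class-matched cells, with black bars at the list medians and dashed lines at 2-fold. The primed list had the lowest median, -1.14, and moved to -0.37 when classes were matched.

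Cell cycle genes differed by phase, those of mitosis lying above and those of S phase below 0 in the median. Of 18 genes of G2 and mitosis, 13 were higher and 5 lower in Nanog-high cells, with 2 at least 2-fold higher and 0 at least 2-fold lower, a median log2 fold of 0.38 and 0.35 class-matched. Cdk1, the mitotic kinase, had medians of 8.03 per 10000 (1.47 to 14.7) and 3.35 (0 to 9.59), a log2 fold of 1.09 and 0.27 class-matched, and Cenpe, a kinetochore motor, was at 1.04 and 0.67. Cdk1 lay above the Nanog-low median in 13 of 15 Nanog-high cells. Of 15 S phase genes 4 were higher and 11 lower, 0 past 2-fold, with a median of -0.33 and -0.18 class-matched, the lowest being Pcna, the replication clamp, at -0.63. The 59 cytosolic ribosomal protein genes had a median of -0.14 with 17 higher and 42 lower, and of 0.015 with 32 higher and 27 lower class-matched, and 1 of them, the testis and stem cell paralog Rpl39l, was at 1.30 and 0.53 class-matched. The 10 p53 targets and 9 heat shock genes had medians of 0.14 and 0.03, with 0 past 2-fold.

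The 12 genes with the highest folds among those with the same sign on both alleles and in the medians were Xlr3a, Ptdss1, Calcoco2, Setd4, Jmjd4, Dazl, Cdyl2, Polr3f, Ccdc174, Tuba3b, Pecam1 and Wdr45, from 4.28 down to 2.30 on the log2 scale, and from 0.56 to 3.40 class-matched. Calcoco2, an autophagy receptor gene, had a median of 4.47 per 10000 in Nanog-high cells (0.471 to 9.81), 3.47 in between and 0 in Nanog-low cells (0 to 4.25), a log2 fold of 3.05 and 1.35 class-matched. Reads of Calcoco2 were present in 15 of 15 Nanog-high but 4 of 15 Nanog-low cells, and no Nanog-low cell exceeded the Nanog-high median. Ptdss1, a phosphatidylserine synthase, had medians of 0.298 (0 to 1.03) and 0 (0 to 0.416), a log2 fold of 3.05 and 3.40 class-matched, and reads in 14 and 3 cells. Xlr3a belongs to an X-linked family of near-identical genes and Tuba3b to a pair of near-identical tubulins, so the counts of both are uncertain.

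The 12 with the lowest folds were F2rl1, Tanc1, Fbxl5, Aplp1, Rictor, Creld1, Smagp, Ext1, Pomk, Luzp1, Lsm10 and Reep6, from -3.06 to -1.90, and from -2.76 to 0.25 class-matched. F2rl1, a protease-activated receptor, had a median of 0 in Nanog-high (0 to 1.80), 0.148 in between and 2.39 in Nanog-low cells (0 to 9.16), and a class-matched log2 fold of -2.76. No Nanog-high cell exceeded the Nanog-low median of F2rl1, and 11.8% of its counts were Mus. Rictor, the defining subunit of the mTORC2 kinase complex, had medians of 0.153 (0 to 1.82) and 0.503 (0 to 6.85), a log2 fold of -2.19 and -1.63 class-matched. Most of these genes are sparse, and their ranges overlapped at 0.

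Across all 47 cells the Spearman rho of the compared genes with Nanog ran from -0.55 to 0.67 with a median of 0.02, and 21 genes reached 0.5 and 5 reached -0.5. The cells share a plate, the values share the cell total as denominator, and whether the cells share a culture is not stated. The genes most like Nanog were Calcoco2 at 0.67, Xlr3a at 0.61, Hprt at 0.60, Wdr45 at 0.59, Fbxo15 at 0.58 and Ptdss1 at 0.58, of which Xlr3a, Hprt and Wdr45 are X-linked. Within X-Mus X-Cast and within single-X cells, rho was 0.46 and 0.54 for Calcoco2, 0.77 and 0.63 for Ptdss1, and 0.56 and 0.31 for Hprt, the purine salvage enzyme. The genes most unlike it were Cdc26 at -0.55, 3110082I17Rik at -0.53, Cdk4 at -0.52, Gstp1 at -0.50, Dnmt3l at -0.50 and Lamtor2 at -0.48. The log2 folds of these 6 ran from -1.32 for Cdc26 to -0.57 for Cdk4. Class-matched they ran from -0.98 to -0.21, with 0 of 6 at least 2-fold lower. Cdc26, a subunit of the anaphase-promoting complex, had medians of 0.772 (0.138 to 1.71) and 2.04 (0.284 to 5.41), and Cdk4, the G1 kinase, 1.97 (1.19 to 3.15) and 2.67 (1.50 to 5.85). In Cdc26, 13 of 15 Nanog-low cells lay above the Nanog-high median, and no Nanog-high cell above the Nanog-low median.

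X-linked genes were higher in Nanog-high cells, as X class was. Of 103 X-linked genes compared 85 were higher, 13 at least 2-fold higher (12.6%, against 4.80% of autosomal genes) and 2 at least 2-fold lower, with a median log2 fold of 0.54. With X classes matched 45 of 103 were higher, 2 at least 2-fold higher and 8 at least 2-fold lower, with a median of -0.10. The X-linked share of all counts had a median of 1.99% in Nanog-high and 1.28% in Nanog-low cells. Hprt had medians of 2.95 per 10000 (1.02 to 4.62) and 0.958 (0 to 2.44), a log2 fold of 1.41, 0.64 class-matched and 0.96 between X-Mus X-Cast and single-X cells. Prps1, a phosphoribosyl pyrophosphate synthetase, had medians of 11.5 (5.59 to 26.2) and 5.77 (2.08 to 13.9), a log2 fold of 1.13 and 0.27 class-matched. All 15 Nanog-high cells lay above the Nanog-low median of Hprt. The 2 X-linked genes at least 2-fold lower were Nr0b1 and Pim2. Xist, the RNA that coats an inactive X, had 47 counts in Nanog-high and 67 in Nanog-low cells, too few to compare.

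**Figure D5:**
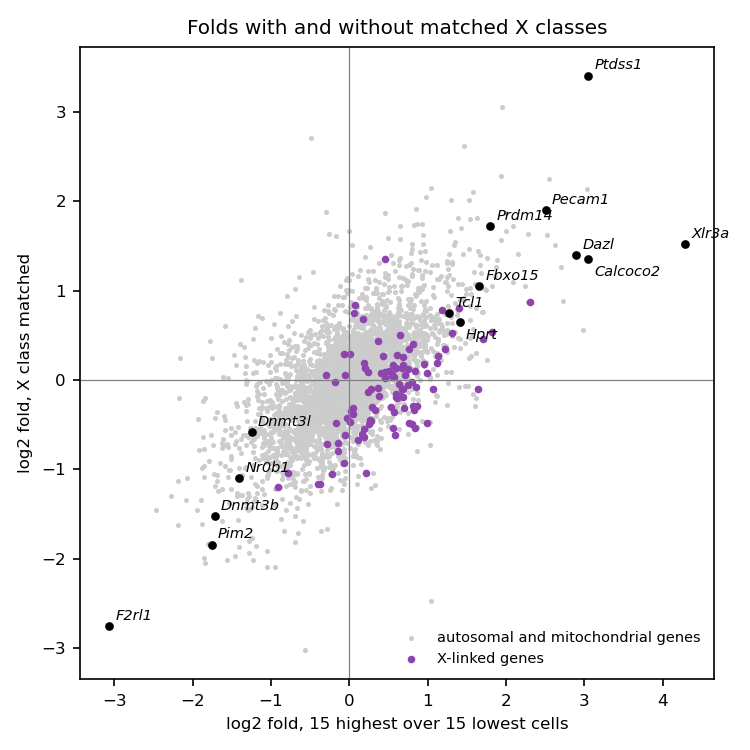
Log2 folds of 3840 genes between the 15 highest and 15 lowest cells (horizontal axis) and between class-matched cells (vertical axis), 1 point per gene, X-linked genes in purple and named genes in black. The comparisons share 9 high and 11 low cells. The X-linked genes had a median of 0.54 on the horizontal and -0.10 on the vertical axis.

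The region around Nanog did not move as a block. Within 2 Mb, 10 genes were compared, of which 3 were higher, Slc2a3, Necap1 and Pex5, and the median log2 fold was -0.16. Pex5, a receptor of peroxisomal import, was at 2.08 and 1.09 class-matched, and Bid, a proapoptotic gene, at -1.05 and -0.35. The pluripotency genes Dppa3 and Gdf3, which lie -0.0811 and -0.102 Mb from Nanog, were at -0.38 and -0.38. Chromosome 6 held a median of 3.65% of counts in Nanog-high and 3.61% in Nanog-low cells.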

How the data were processed

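Single-cell RNA-seq of iPSCs was used, 47 cells of 1 plate with 1 library each. Per the labels, reads were mapped to mm10 with STAR 2.5.3a and SAMtools; the methods describe splitting of reads by strain and counting at SNP positions in genes with at least 4 SNPs for the Smart-seq2 cells of the study, and the same steps were assumed for this plate. The authors deposited whole-number allelic counts per gene, 1 column per allele and cell, not normalized. A read over several SNPs can count more than once, and genes with more SNPs gain more counts, so levels were not compared between genes.

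From these counts, both alleles were summed, divided by the cell total and multiplied by 10000 with pandas 2.3.3 and numpy 2.4.6 under Python 3.11.15 (plots in matplotlib 3.10.9, intervals in scipy 1.17.1). Genes were placed with GENCODE M21 and RefSeq. A gene was compared if its mean reached 5 counts per cell and 24 cells or more had a read, Nanog excepted. All 47 cells were kept, and none was removed as a doublet. A fold is the ratio of group means; a group of 0 counts would have been set to 3 counts over the group, but 0 genes compared had one. Totals ran from 71682 to 216451 counts per cell. Genes were named by a rule: the 12 highest and 12 lowest folds with the same sign on both alleles and in the medians and no cell giving over 40% of its group's counts, the 6 highest and 6 lowest rho, the ends of each list, X-linked genes and markers; other list members named past 2-fold, and Prps1, F2rl1, Rictor and similar examples among them, were picked after their values were seen. The members and gene lists were chosen with earlier results of these data known. No test was made: the labels separate no cultures, so all cells were treated as 1 culture. The fold script was tested on simulated data. Alternatives covered group size, ranking allele, scaling, filters, depth and X class. Listed two-cell-like genes were not analysed here, and the result of 1 gene is not reported here.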

Additional observations from a re-analysis of the deposited data

How the results depend on the processing

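No paired analysis was possible because the cells carry no shared replicate numbers and no test was made. Genes at least 2-fold higher and lower numbered 192 and 226; they were 288 and 342 with 10 cells per group, 101 and 109 with 23 cells per group, 684 and 341 with medians in place of means, 33 and 24 with a mean of at least 20 counts, 714 and 369 among X-Mus X-Cast cells (13 over 3) and 374 and 740 among single-X cells (2 over 12). The share of such genes that were higher was 45.9%, 66.7% with medians and 54.8% with size factors. With medians, a group median of 0 was set to the floor of 3 counts over the group. The counts and the share with medians therefore depend on that floor. Without the 4 cells of low chromosome 1 Cast share, a setting added after seeing the data like class matching, the counts were 200 and 211. The MAPK median, -0.82, was 0.0065 with medians, -0.083 ranked by Cast and 0.25 among X-Mus X-Cast cells; the primed median, -1.14, was -0.10 among X-Mus X-Cast cells and -0.37 class-matched; the glycolysis median, 0.09, was -0.58 among single-X cells. Among the named genes at least 2-fold apart, signs turned with 10 cells per group (Nr5a2 0.67), without the highest cell of each group (Nr5a2 0.018), ranked by Cast (Nr5a2 0.20, Vim 0.11) or Mus counts (Rpl39l -0.18) and after thinning (Nr5a2 0.21). They also turned class-matched (Nr5a2 0.19, Lamb1 0.091, Smagp 0.25), among X-Mus X-Cast cells (3110082I17Rik 0.076, Il17rd 2.05, Lamb1 0.14, Lef1 0.11, Lifr -1.13, Tbx3 -0.25) and among single-X cells (Pecam1 -2.73, Lamb1 0.11, Nodal -2.16, Prdm14 -1.01, Tcl1 -0.56). With medians Il17rd turned too, but the size of its 3.35 comes from a floored Nanog-low median of 0. Lifr, with a median of 0 in both groups, gave -0.11 with medians from the floor alone, which is no turned sign. The cause of the turned signs was not tested. Named genes under 2-fold turned too, such as Klf4, Idh3g, Dnmt1 and Esrrb when class-matched. With the autosomal total, size factors, a mean of at least 1 count, ranking by Mus, cells over 100000 counts alone, thinning or no chromosome 1 outliers, the higher count ran from 167 to 267 and the lower from 192 to 285. The medians of the naive, core, primed, MAPK, glycolysis and oxidative phosphorylation lists moved by less than 1 SD between cells. That SD is of the log2 summed counts of a list in single cells and not of the median fold, so it is a coarse limit. Shares of X class and totals per group were left out for the settings that fix X class. With no labelled replicate cultures and few counts per cell, genes with medians of 0 cannot be ranked finely.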
